A study of Triticum aestivum with 12 samples.

Results

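The probe sets described here were higher at 28 days after anthesis (DAA) than at 14 DAA in developing grains of both wheat genotypes, with the genotypes close to each other at each stage. They were selected on the measured values: the group mean at 28 DAA exceeded that at 14 DAA by at least 2 on the log2 scale in IITR26 and in WL711, the IITR26 minus WL711 difference lay between -1 and 1 at both stages, and in each genotype every 28 DAA array lay above every 14 DAA array. Probe sets of 3 sequence clusters were left out by name. The selection held 51 of 61179 probe sets. Because the stage and genotype differences chose them, these differences are given as a description and carry no test.

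The design held 4 groups of 3 arrays, IITR26 at 28 DAA, IITR26 at 14 DAA, WL711 at 28 DAA and WL711 at 14 DAA. IITR26 and WL711 are bread wheats (Triticum aestivum L.), the first rich and the second poor in grain minerals, grown untreated in 1 field. Ears were tagged at anthesis on 3 plants of each genotype, and the RNA of each sample came from 3 grains of the middle part of the ear. It was hybridised to the Affymetrix GeneChip Wheat Genome Array, 1 array per sample. The labels do not tie an array to a plant, so the spread between arrays may be partly technical. Each genotype was a single line in a single field, so genotype and growing history cannot be told apart.

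Between these stages a wheat grain passes from filling, when the endosperm lays down starch and storage protein, towards maturation and drying. In maturing cereal grains the embryo and aleurone are known for late embryogenesis abundant (LEA) proteins and dehydrins, which protect cells during water loss, for oleosins, which coat oil bodies, and for genes that respond to abscisic acid. The green outer pericarp loses its chloroplasts and cell division in the endosperm ends. Bread wheat carries 3 related genomes, so that one gene is commonly present as several near-identical copies that probes may not separate. In whole grains, fewer cells of a type and less RNA per cell cannot be told apart.

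The deposited values were on the log2 scale, and each probe set had been set to a median of 0 over the 12 arrays. Brightness therefore could not be read and levels could not be compared between probe sets. For the 51 probe sets, 0 lay midway between the lowest 28 DAA array and the highest 14 DAA array in all 51 (within 0.001), so that positive values at 28 DAA and negative ones at 14 DAA follow from this centring. Over all probe sets the arrays of IITR26 at 28 DAA (SD 0.60 to 0.69) and WL711 at 14 DAA (SD 0.60 to 0.63) were the most widely spread, with 0.30 to 0.35 for IITR26 at 14 DAA and 0.37 to 0.42 for WL711 at 28 DAA. Replicate 1 of WL711 at 28 DAA stood apart, with Pearson correlations of 0.41 and 0.29 with its replicates over all probe sets, against 0.67 between the other two. This array correlated at 0.39, 0.37 and 0.36 with the arrays of IITR26 at 28 DAA, where its replicates correlated at 0.04 to 0.24. Why it lay nearer to the other genotype was not tested. Without this array the same selection gave 48 probe sets, 41 of them shared with the 51.

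By limma, a call required a log2 change of 2 or more with a Benjamini-Hochberg adjusted p no higher than 0.01. On this rule 812 of 61179 probe sets (1.33%) were higher at 28 DAA in IITR26 and 586 (0.958%) in WL711. Lower at 28 DAA were 973 (1.59%) in IITR26 and 819 (1.34%) in WL711. In both genotypes together, 341 (0.557%) were higher and 394 (0.644%) were lower. All 51 selected probe sets were called higher in IITR26 and 50 were in WL711, a count that the selection itself fixes and from which nothing is read. The exception in WL711 was Ta.21480.1.S1_x_at.

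Most probe sets that rose in both genotypes were lost from the selection on the genotype difference. A mean rise of at least 2 was measured for 841 probe sets in IITR26 and 620 in WL711, and 356 had it in both. Of these 356, 144 lay within the genotype bound at 28 DAA and 149 at 14 DAA, but only 52 (14.6%) lay within it at both stages. The last condition, no overlap of arrays, removed 1 more, Ta.24771.1.S1_x_at. The same selection with the sign turned gave a group of like size, 52 probe sets that were lower at 28 DAA out of 404 with a fall of at least 2 in both genotypes.

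**Figure D1:**
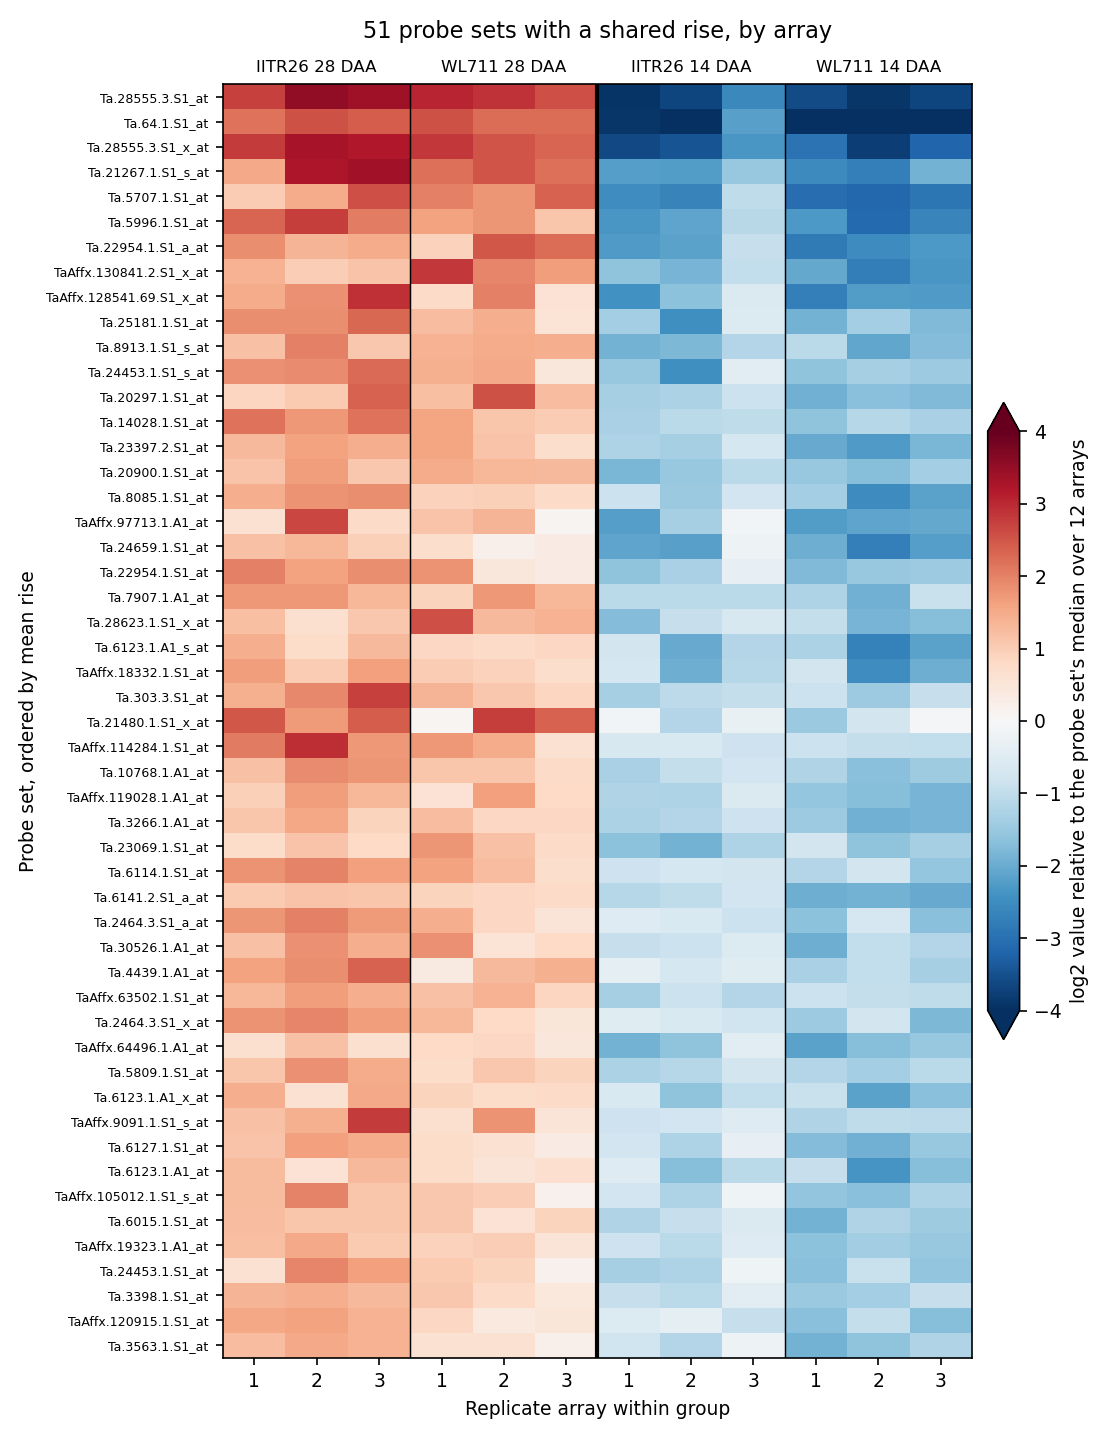
Heat map of the 51 probe sets (rows, ordered by mean rise) over the 12 arrays (columns, grouped by genotype and stage). Colour is the log2 value relative to the probe set's median, capped at 4 either way. All 28 DAA columns are above 0 and all 14 DAA columns below it, and the palest 14 DAA column is replicate 3 of IITR26.

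Median rises were close in both genotypes, which the genotype bound favours. In IITR26 the median rise was 2.56 (range 2.05 to 6.61), a 5.90-fold change, and in WL711 it was 2.58 (range 2.01 to 6.78), a 6.0-fold change. Over all probe sets the median change was 0.01 in IITR26 and 0.03 in WL711. The distribution was crowded near the limit of the selection. A mean rise over both genotypes under 2.5 was found for 22 probe sets, from 2.5 to under 3 for 16, and at least 3 for 13, of which 6 reached 4. Without replicate 1 of WL711 at 28 DAA, the median rise of the 51 in WL711 was 2.55, and 44 of them kept a rise of at least 2 there.

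The spread between replicate arrays was wider in these probe sets than on the array as a whole. The median SD of the 51 was 0.31 in IITR26 at 28 DAA, 0.39 in IITR26 at 14 DAA, 0.30 in WL711 at 28 DAA and 0.32 in WL711 at 14 DAA, where all probe sets had medians of 0.18, 0.13, 0.16 and 0.13 in the same order. The gap between the lowest 28 DAA and the highest 14 DAA array had a median of 1.94 in IITR26 and 1.90 in WL711, and it was under 1 in 2 probe sets in IITR26 and in 1 in WL711.

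The largest mean rise over both genotypes belonged to Ta.28555.3.S1_at, which has no gene name in the annotation used. Its values were 2.73, 3.54 and 3.38 at 28 DAA and -3.93, -3.68 and -2.57 at 14 DAA in IITR26, and 3.04, 2.88 and 2.57 at 28 DAA and -3.59, -3.89 and -3.66 at 14 DAA in WL711. The stages lay far apart in both genotypes and replicate 3 of IITR26 was the highest of the 14 DAA arrays. The rise was 6.61 in IITR26, a 97.7-fold change, and 6.54 in WL711, a 93.2-fold change. A companion probe set of the same transcript cluster, Ta.28555.3.S1_x_at, rose by 6.24 in IITR26 and 5.86 in WL711.

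Ta.64.1.S1_at was the only one of the 51 that the platform annotation tied to a single gene, LOC543479, for which no function was given. Its values were 2.16, 2.54 and 2.43 at 28 DAA and -3.88, -5.36 and -2.16 at 14 DAA in IITR26, and 2.55, 2.24 and 2.22 at 28 DAA and -4.34, -4.93 and -4.04 at 14 DAA in WL711. The 28 DAA arrays of both genotypes were nearly level, with means of 2.38 ± 0.19 in IITR26 and 2.34 ± 0.18 in WL711 (SD, n = 3 each). At 14 DAA the means were -3.80 ± 1.60 in IITR26 and -4.44 ± 0.45 in WL711, the SD in IITR26 being the largest of any of the 51 at that stage. The rise was 6.18 in IITR26 and 6.78 in WL711, the largest in WL711.

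The annotation gave the same gene to a second probe set, Ta.2799.1.S1_x_at, which was not in the selection. Its values were 0.67, 0.80 and 0.71 at 28 DAA and -0.99, -0.83 and -0.49 at 14 DAA in IITR26, and 0.54, 0.51 and 0.49 at 28 DAA and -4.25, -3.73 and -2.35 at 14 DAA in WL711. Both probe sets were higher at 28 DAA with no overlap, but the second one separated the genotypes at 14 DAA. Its change was 1.5 in IITR26 (SE 0.35, limma adjusted p = 0.0078), below the limit of 2, and 3.96 in WL711 (SE 0.35, limma adjusted p = 1.05e-05). Its IITR26 minus WL711 difference at 14 DAA was 2.68, against 0.64 for Ta.64.1.S1_at. The platform annotation can be old, and the suffix x marks probes that also match other sequences.

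The next strongest probe sets had no gene name. Ta.21267.1.S1_s_at had 1.51, 3.23 and 3.35 at 28 DAA and -2.21, -2.24 and -1.51 at 14 DAA in IITR26, and 2.20, 2.5 and 2.20 at 28 DAA and -2.53, -2.72 and -1.90 at 14 DAA in WL711. It rose by 4.69 in each genotype. Replicate 1 of IITR26 at 28 DAA was well below its companions without reaching the 14 DAA arrays.

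Ta.5996.1.S1_at had 2.34, 2.76 and 2.06 at 28 DAA and -2.33, -2.12 and -1.10 at 14 DAA in IITR26, and 1.60, 1.77 and 1.10 at 28 DAA and -2.30, -3.11 and -2.64 at 14 DAA in WL711. IITR26 was higher by 0.90 at 28 DAA and by 0.83 at 14 DAA, so that the rises of 4.24 in IITR26 and 4.17 in WL711 were nearly parallel. Ta.5707.1.S1_at and Ta.22954.1.S1_a_at were not parallel in this way.

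**Figure D2:**
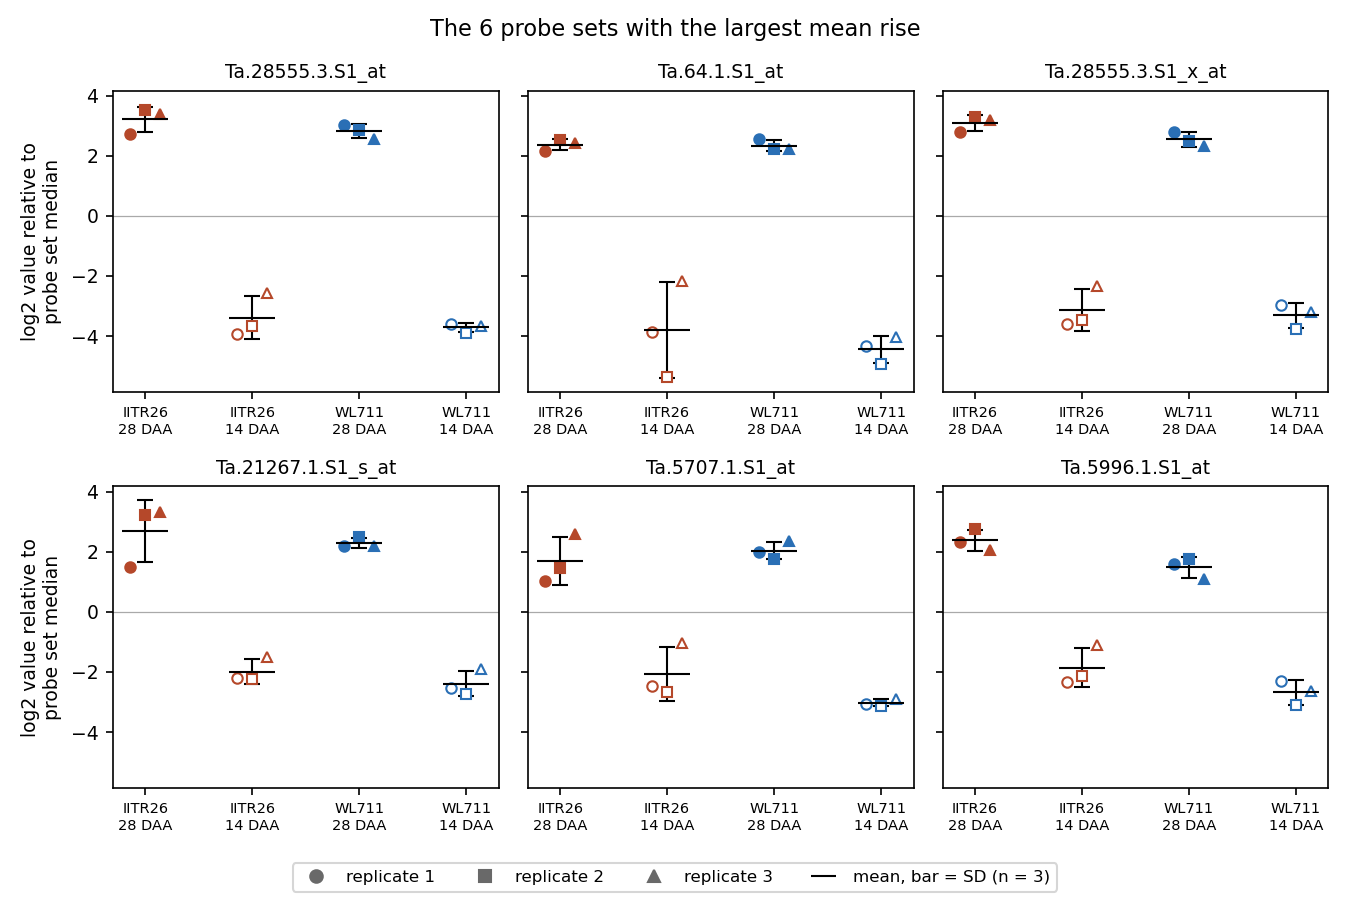
Values of the 6 probe sets with the largest mean rise, by array (points, marker by replicate number, filled at 28 DAA and open at 14 DAA), with group mean and SD (n = 3). The y axis is the log2 value relative to the probe set's median. In Ta.28555.3.S1_at the 28 DAA arrays lie between 2.57 and 3.54 and the 14 DAA arrays between -3.93 and -2.57.

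By the selection, the rises of IITR26 and WL711 could differ by no more than 2, so that their likeness is a description. The rises of IITR26 and WL711 differed by under 0.5 in 37 of 51, IITR26 having the larger rise in 26 and WL711 in 25, and the median difference was 0.01. Ta.8913.1.S1_s_at was among the most alike, with means of 1.42 ± 0.52 at 28 DAA and -1.62 ± 0.39 at 14 DAA in IITR26, and 1.44 ± 0.04 at 28 DAA and -1.63 ± 0.51 at 14 DAA in WL711 (SD, n = 3 each). Its rise was 3.05 in IITR26 and 3.07 in WL711.

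The rises differed by 1 or more in 4 probe sets, and in each of them the rise was larger in WL711. TaAffx.130841.2.S1_x_at rose by 2.65 in IITR26 and by 4.53 in WL711, with 1.38, 0.99 and 1.13 in IITR26 against 2.84, 1.94 and 1.67 in WL711 at 28 DAA, and -1.60, -1.87 and -0.99 in IITR26 against -2.05, -2.78 and -2.31 in WL711 at 14 DAA. The genotypes did not overlap at either stage, and their order turned round between the stages. Ta.5707.1.S1_at rose by 3.75 in IITR26 and 5.07 in WL711, Ta.28623.1.S1_x_at by 2.08 in IITR26 and 3.26 in WL711, and Ta.22954.1.S1_a_at by 3.34 in IITR26 and 4.43 in WL711. In all 4, IITR26 was the lower genotype at 28 DAA and the higher one at 14 DAA.

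**Figure D3:**
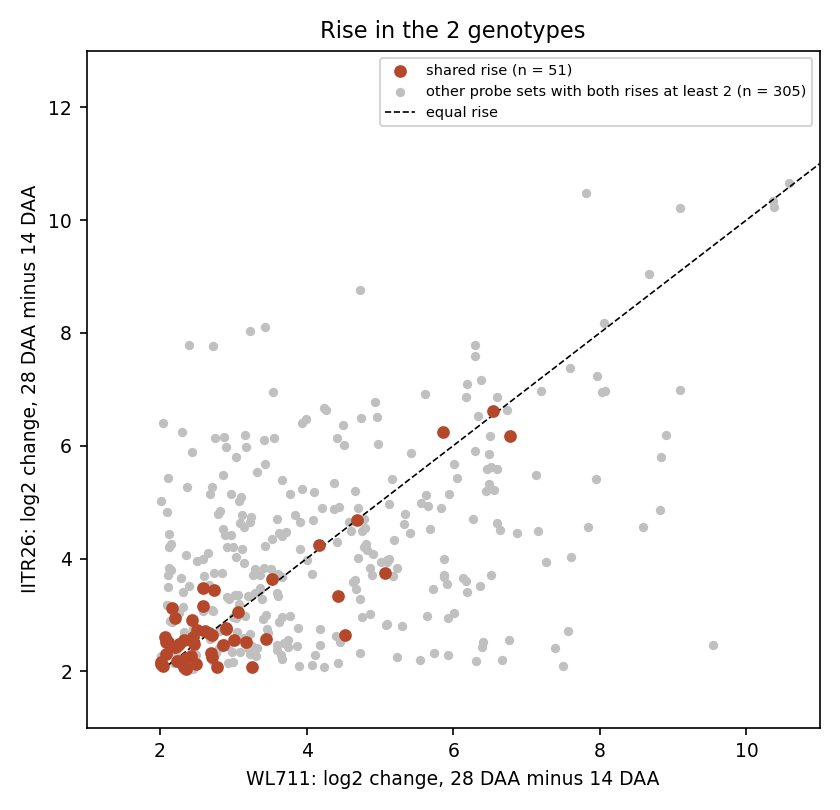
Rise in IITR26 (y axis) against rise in WL711 (x axis), both as the log2 change of 28 DAA minus 14 DAA, for the 51 selected probe sets and the other 305 probe sets with both rises at least 2. The selected probe sets, whose rises the selection lets differ by at most 2, lie near the line of equal rise (dashed), with 37 of 51 differing by under 0.5.

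Within the bound of 1, IITR26 was more often the higher genotype in the values as deposited, though not after a repeated quantile normalization. At 28 DAA it was higher in 43 of the 51 probe sets and at 14 DAA in 47, with median IITR26 minus WL711 differences of 0.46 and 0.56. In 40 of the 51 it was higher at both stages, giving the order IITR26 at 28 DAA, WL711 at 28 DAA, IITR26 at 14 DAA and WL711 at 14 DAA. All 3 IITR26 arrays exceeded all 3 WL711 arrays in 23 of 51 at 28 DAA and in 17 at 14 DAA, against 13.4% and 15.9% of all probe sets at these stages, and in 8 this held at both.

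The direction of this genotype difference depended on the scaling. With a repeated quantile normalization, which gives every array the same distribution of centred values whatever its spread, IITR26 was higher at both stages in 8 of the 51 instead of 40, and the median differences were -0.07 at 28 DAA and -0.31 at 14 DAA. With array medians aligned it was 40 again, but these medians lay between -0.006 and 0.010, so this step could change little. The quantile step narrows the most widely spread arrays, those of IITR26 at 28 DAA and WL711 at 14 DAA, and widens the others. In centred probe sets that rise, this alone lowers IITR26 against WL711 at both stages, and in those that fall it raises IITR26. The change from 40 to 8 therefore cannot decide which order holds. The median rises under quantile normalization were 2.80 in IITR26 and 2.66 in WL711, and a rise of at least 2 was kept by 51 of the 51 in IITR26 and by 49 in WL711. The same selection on those values gave 207 probe sets, 38 of them shared with the 51. Leaving out replicate 1 of WL711 at 28 DAA gave 39 of 51, leaving out replicate 3 of IITR26 at 14 DAA gave 35, and leaving out replicate 3 of WL711 at 28 DAA gave 38.

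As deposited, 11 of the 51 were not higher in IITR26 at both stages. Ta.23069.1.S1_at was the only one higher in WL711 at both stages on that scale, whereas 30 were after the repeated quantile normalization. It had 0.75, 1.15 and 0.81 in IITR26 against 1.75, 1.18 and 0.78 in WL711 at 28 DAA, and -1.63, -1.89 and -1.24 in IITR26 against -0.75, -1.61 and -1.34 in WL711 at 14 DAA. Its genotypes overlapped at both stages. The differences were -0.33 at 28 DAA and -0.35 at 14 DAA, beside group SDs of 0.22 to 0.49.

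The other 305 probe sets with a rise of at least 2 in both genotypes were 304 outside the genotype bound and Ta.24771.1.S1_x_at, so that their larger genotype differences follow from the selection. As deposited, IITR26 was higher by more than 1 in 206 at 28 DAA and in 204 at 14 DAA, and WL711 was higher by more than 1 in 6 at 28 DAA and in 3 at 14 DAA. After the repeated quantile normalization the difference lay within 1 in 212 of the 305 at 28 DAA and in 209 at 14 DAA, against 93 and 98 as deposited. IITR26 was higher at both stages in 273 of the 305, or in 125 of them after the repeated quantile normalization. In the 52 probe sets with a shared fall WL711 was higher at both stages in 40, or in 5 after the repeated quantile normalization. Over all 61179 probe sets IITR26 was higher in 49.8% at 28 DAA and in 52.1% at 14 DAA.

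**Figure D4:**
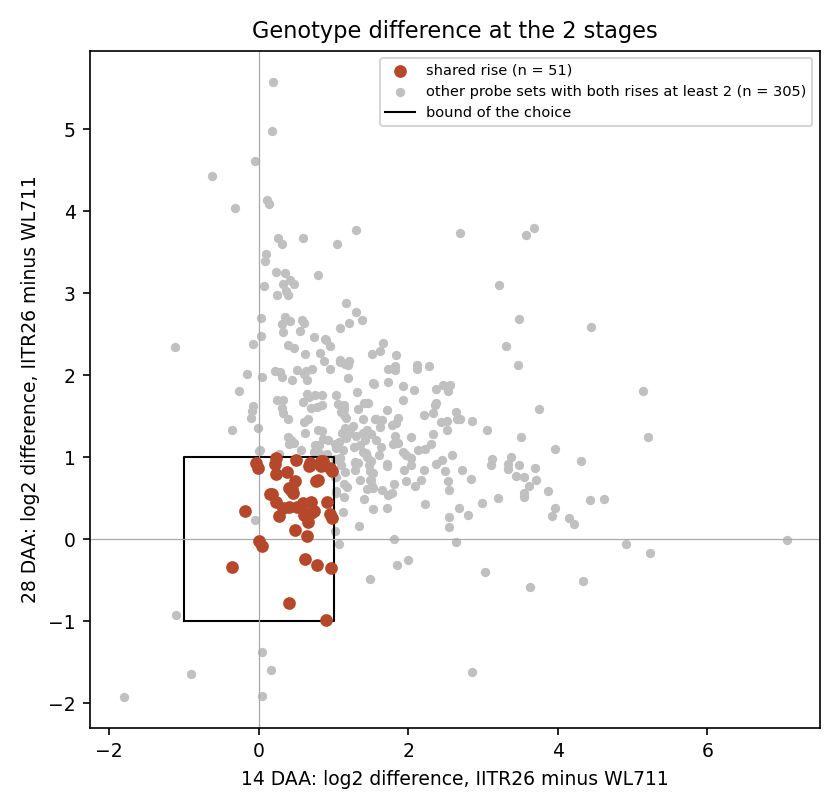
Difference IITR26 minus WL711 at 28 DAA (y axis) against that at 14 DAA (x axis), on the log2 scale, for the 51 selected probe sets and the other 305 with both rises at least 2. The square marks the bound of 1. Within it 40 of the 51 have both differences above 0 (8 after repeated quantile normalization), and of the other 305 this holds for 273 (125 after it).

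Some arrays lay nearer to the opposite stage than their replicates did in most of the 51 probe sets. Replicate 3 of WL711 at 28 DAA was the lowest of its 3 replicates in 33 of the 51 probe sets, against 31.2% of all probe sets, and the median distance from the mean of its companions was -0.36. Replicate 3 of IITR26 at 14 DAA was the highest of its 3 replicates in 38 of the 51, against 34.4% of all probe sets, with a median distance of 0.52. Replicate 1 of IITR26 at 28 DAA was the lowest of its 3 replicates in 26 of the 51, against 32.1% of all probe sets, with a median distance of -0.23. Of these arrays, the 2 of replicate 3 set the gap most often. Replicate 3 of WL711 was the lowest of the 6 arrays at 28 DAA in 29 of the 51, and replicate 3 of IITR26 was the highest of the 6 at 14 DAA in 35. Among the other 305 rising probe sets, replicate 1 of IITR26 at 28 DAA was the lowest of its 3 in 74.1%, replicate 3 of WL711 at 28 DAA the lowest in 69.8% and replicate 3 of IITR26 at 14 DAA the highest in 87.9%.

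The same arrays were displaced the other way in the probe sets with a shared fall. There the median distance from the companions was 0.13 for replicate 1 of IITR26 at 28 DAA, 0.42 for replicate 3 of WL711 at 28 DAA and -0.25 for replicate 3 of IITR26 at 14 DAA. The number of selected probe sets depended on these arrays. Without replicate 3 of IITR26 at 14 DAA it was 77, 50 of them shared with the 51, without replicate 3 of WL711 at 28 DAA it was 73, with 49 shared, and without replicate 1 of IITR26 at 28 DAA it was 46, with 42 shared.

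The 51 probe sets belonged to 45 sequence clusters, as given by the cluster number in the probe set name, so they stood for at most 45 separately designed targets. Ta.6123 had 3 of them, and Ta.28555, Ta.22954, Ta.24453 and Ta.2464 had 2 each. Names starting with TaAffx made up 12 of the 51 (23.5%), against 48.5% of all probe sets. The suffixes x, s and a, which mark probe sets that can match more than 1 transcript, were carried by 16 of the 51 (31.4%), against 20.8% of all probe sets. The suffix s alone was carried by 11.8% of the 51 and 4.31% of all. Such probe sets may report on several wheat gene copies together.

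Other probe sets of the same clusters served as a further reading of some targets. There were 71 in 15 clusters, of which 59 were above 0 in both genotypes, against 35.7% of all probe sets. A change of at least 1 in both was found in 20 of the 71, against 1.7%. Their median change was 0.40 in IITR26 and 0.25 in WL711. Without the largest cluster, TaAffx.128541, 28 remained in 14 clusters, of which 27 were above 0 in both and 17 changed by at least 1 in both. The median change of these 28 was 1.85 in IITR26 and 1.5 in WL711. In the cluster of the strongest member, Ta.28555.1.S1_at changed by 6.51 in IITR26 and 4.96 in WL711 and Ta.28555.2.S1_at by 4.46 in IITR26 and 3.62 in WL711. Both were left out on the genotype bound, with IITR26 higher by 2.44 and 1.62 at 28 DAA.

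Some clusters did not move as one. Ta.303.3.S1_at rose by 3.13 in IITR26 and 2.16 in WL711, while Ta.303.2.S1_at of the same cluster changed by 0.19 in IITR26 and 0.02 in WL711. Ta.8913.2.S1_at changed by 0.22 in IITR26 and 0.19 in WL711, beside rises of 3.05 in IITR26 and 3.07 in WL711 for Ta.8913.1.S1_s_at. Cluster TaAffx.128541 held 43 further probe sets, of which 39 changed by less than 1 in both genotypes. Of that cluster only TaAffx.128541.69.S1_x_at was selected, with rises of 3.64 in IITR26 and 3.53 in WL711.

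Some of the selected probe sets repeated each other array by array. After subtraction of the 4 group means, pairs from different clusters had a median correlation of 0.26 over the 12 arrays. These correlations rest on the same 12 hybridisations with 8 degrees of freedom and are a description only. Of the 7 pairs from one cluster, 5 were above 0.9, and so were 9 pairs from different clusters out of 1275 pairs in all. The closest was Ta.20297.1.S1_at with TaAffx.9091.1.S1_s_at (r = 0.99).

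Both members of that pair stood out in the same arrays. Ta.20297.1.S1_at had 0.86, 1.04 and 2.35 at 28 DAA in IITR26 and 1.20, 2.55 and 1.23 at 28 DAA in WL711, and TaAffx.9091.1.S1_s_at had 1.19, 1.43 and 2.80 in IITR26 and 0.64, 1.80 and 0.51 in WL711. Replicate 3 of IITR26 and replicate 2 of WL711 were the high arrays of both. Ta.25181.1.S1_at and Ta.24453.1.S1_s_at (r = 0.98) differed by at most 0.31 in any array. TaAffx.18332.1.S1_at and the 3 probe sets of Ta.6123 (r from 0.96 to 0.98) shared a low replicate 2 at 14 DAA, at -1.95 in IITR26 and -2.50 in WL711 for the first of them. Whether such pairs share a target was not tested, since no probe sequences were used.

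One pair from a single cluster did not run together. Ta.22954.1.S1_a_at and Ta.22954.1.S1_at had a correlation of -0.06, with 0.92, 2.48 and 2.23 for the first and 1.80, 0.45 and 0.33 for the second in WL711 at 28 DAA. The array that was lowest for one was the highest for the other. Their rises in WL711 were 4.43 and 2.44.

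The least certain of the 51 was Ta.21480.1.S1_x_at. It had 2.49, 1.69 and 2.41 at 28 DAA and -0.11, -1.19 and -0.30 at 14 DAA in IITR26, and 0.08, 2.78 and 2.36 at 28 DAA and -1.49, -0.72 and -0.08 at 14 DAA in WL711. In WL711 the lowest 28 DAA array, replicate 1, cleared the highest 14 DAA array by only 0.16. The SD of 1.45 in WL711 at 28 DAA was the largest of any of the 51 in that group.

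The limits of the selection cut through a continuous range. Just inside the limit of 2 in IITR26 lay Ta.6015.1.S1_at at 2.05 and TaAffx.19323.1.A1_at at 2.07, and just outside it Ta.6141.1.S1_at at 1.97 and Ta.30506.1.A1_at at 1.95. In WL711, Ta.3398.1.S1_at and TaAffx.120915.1.S1_at lay just inside at 2.01 and 2.02, and TaAffx.122432.1.S1_at and Ta.5050.1.S1_at just outside at 1.99 each. Steps of this size were below the median SDs of the 51. Ta.6141.1.S1_at belongs to the cluster of the selected Ta.6141.2.S1_a_at.

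At the genotype bound the same held. At 28 DAA, TaAffx.114284.1.S1_at at 0.99 and TaAffx.130841.2.S1_x_at at -0.98 lay just inside, and TaAffx.116604.1.S1_at at 1.03 and TaAffx.74187.1.S1_at at 1.05 just outside. At 14 DAA, Ta.8085.1.S1_at at 0.98 and Ta.6141.2.S1_a_at at 0.97 lay just inside, and Ta.3160.1.S1_at and Ta.5236.2.S1_a_at, both at 1.02, just outside. The bound at 28 DAA alone kept out 93 probe sets and that at 14 DAA alone 91, the limit on the rise alone 23 in IITR26 and 50 in WL711. On the order of arrays, Ta.21480.1.S1_x_at with a smallest gap of 0.16 and TaAffx.97713.1.A1_at with 0.72 were nearest inside, and Ta.24771.1.S1_x_at, with a smallest gap of -0.20, was outside.

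Arrays that took no part in a selection gave a further reading. The same conditions were applied to the arrays of 2 replicate numbers, and the change was read in the arrays of the third. Each such selection was made anew and only partly repeated the selection described above. The probe sets shared with it were 26, 31 and 47 with replicates 1, 2 and 3 left out. The left-out values therefore describe the new selections and do not test the group described above as a whole. With replicate 1 left out, 35 probe sets were selected, of which 28 had a change of at least 2 in the left-out IITR26 arrays and 23 in the left-out WL711 arrays. With replicate 2 left out, these were 39 and 31 of 42, and with replicate 3 left out, 66 and 60 of 100. No count here is set beside a share of all probe sets in the same left-out arrays, so the counts are a description. In the probe sets selected anew, the change was above 0 in both genotypes, with 1 exception in WL711.

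That exception was Ta.28631.1.S1_at, which changed by -2.12 in the left-out replicate 1 arrays of WL711. The median change in left-out arrays of IITR26 was 2.38, 2.92 and 2.39 for replicates 1, 2 and 3, against 2.69, 2.5 and 2.65 in the arrays used for selection. In WL711 the medians were 2.32, 3.10 and 2.27, against 2.72, 2.64 and 2.65. The left-out values were thus lower for replicates 1 and 3 and higher for replicate 2. All arrays had been normalised and centred together, and 1 array per group gives no test.

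The genotype difference was read in the same way. In the left-out arrays, the difference between IITR26 and WL711 lay within 1 at 28 DAA in 26 of 35, 26 of 42 and 54 of 100 for replicates 1, 2 and 3. At 14 DAA this was 32 of 35, 38 of 42 and 53 of 100. A difference of single arrays is more variable than a difference of means.

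**Figure D5:**
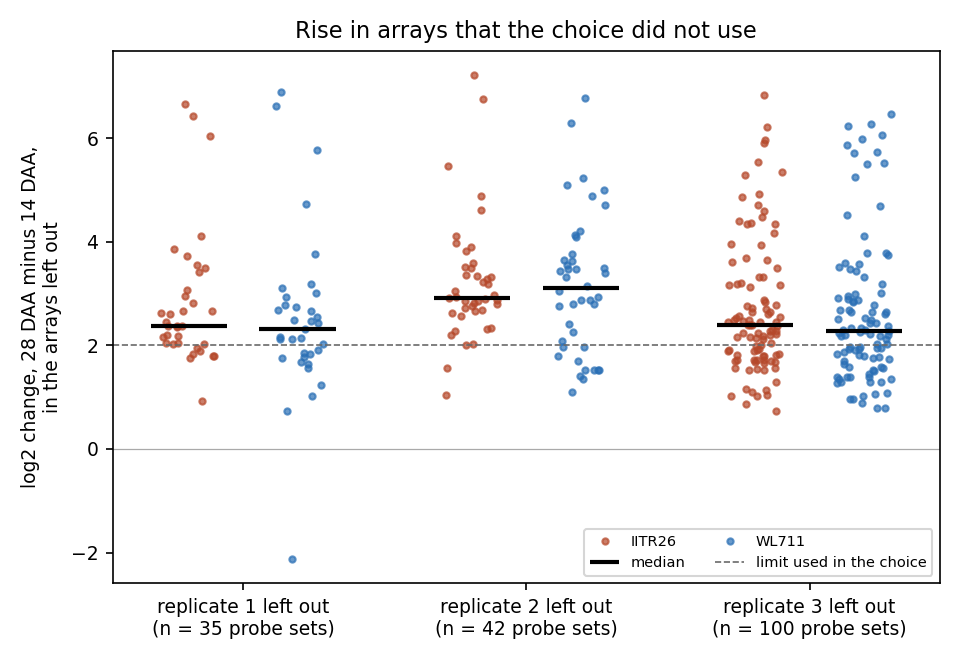
Log2 change of 28 DAA minus 14 DAA in arrays that the selection did not use (y axis), for each left-out replicate number (x axis), by genotype. Points are the probe sets selected anew without that replicate number. Bars are medians (2.38, 2.92 and 2.39 in IITR26 and 2.32, 3.10 and 2.27 in WL711) and the dashed line is the limit of 2.

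Named genes of grain maturation lay outside the selection. Names came from the putative functions assigned in the study, which cover only probe sets chosen for a difference between the genotypes, and from the platform annotation. Of the 430 probe sets with a putative function, 0 had genotype differences within 1 at both stages, so that they could not be selected here. Of the 305 probe sets that rose in both genotypes without being selected, 43 had a name. In all 43, IITR26 was higher by more than 1 at 28 or 14 DAA in the values as deposited.

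Of 9 probe sets of LEA proteins and dehydrins, 5 were called higher in both genotypes, against 0.557% of all probe sets, and 0 lower in either. The list's median change was 2.19 in IITR26 and 2.72 in WL711, against 0.01 and 0.03 over all probe sets. All probe sets are an unlike background, since 7 of the 9 were named from the putative functions. Of the 430 probe sets with a putative function, 20 had a rise of at least 2 in both genotypes, against 356 of all 61179. Embryonic protein DC-8 (Ta.6146.1.S1_at), named after a carrot embryo LEA protein, rose by 4.49 in IITR26 and 4.60 in WL711 (SE 0.41 each, limma adjusted p = 8.24e-06 and 9.61e-06). Its rises were as alike as those of the selected probe sets, but IITR26 was higher by 3.10 at 28 DAA and 3.21 at 14 DAA.

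DC-8 shows how a parallel rise was lost on the genotype bound. Its values were 3.01, 3.56 and 3.58 in IITR26 against 0.25, 0.37 and 0.22 in WL711 at 28 DAA, and -1.41, -1.71 and -0.22 in IITR26 against -3.43, -4.99 and -4.54 in WL711 at 14 DAA. The genotypes did not overlap at either stage. Lea protein 12 (Ta.12657.1.S1_at) rose by 3.51 in IITR26 and 6.36 in WL711, and the small hydrophilic plant seed protein Ta.25230.1.S1_at by 5.26 in IITR26 and 2.37 in WL711. The desiccation-related protein Ta.3068.1.S1_at, with 1.98 in IITR26 and 5.36 in WL711, passed the limit in WL711 alone. So did a second DC-8 entry, Ta.27001.2.S1_at, with 1.65 in IITR26 and 3.86 in WL711. LEA group 1 (Ta.13165.2.S1_at) changed by 0.15 in IITR26 and 0.47 in WL711, with IITR26 minus WL711 at -4.07 at 28 DAA and -3.74 at 14 DAA. COR410 (Ta.16419.1.S1_at) changed by -0.34 in IITR26 and 0.06 in WL711. Whether the rises differ between the genotypes was not tested.

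Other lists held fewer probe sets called higher in both genotypes. These were 1 of 2 oil body proteins, 1 of 4 heat shock proteins and chaperones, 1 of 4 probe sets of abscisic acid signalling, and 4 of 21 defence proteins, against the same 0.557%. That background is unlike these lists too, since the putative functions named 2 of 2, 4 of 4, 4 of 4 and 19 of 21 of them. The second oil body probe set, caleosin (Ta.14471.3.S1_a_at), changed by 3.43 in IITR26 and -1.81 in WL711, and a type 2C protein phosphatase of the abscisic acid list (Ta.28543.1.A1_at) fell by 2.45 in IITR26 and by 2.66 in WL711. Oleosin (Ta.14236.1.S1_at) rose by 5.14 in IITR26 (SE 0.32, limma adjusted p = 5.47e-07) and 5.94 in WL711 (SE 0.32, limma adjusted p = 2.38e-07). The abscisic acid related HVA22 (Ta.5920.1.S1_at), known from barley as a gene induced by that hormone, rose by 3.55 in IITR26 and 5.92 in WL711. Small heat shock protein Ta.202.1.S1_at rose by 4.44 in IITR26 and 2.12 in WL711, and Wheatwin (Ta.9226.1.S1_at), a pathogenesis-related protein, by 4.86 in IITR26 and 8.82 in WL711.

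A named gene with rises of like size was LOC543293, also called Rab15, a gene of the dehydrin kind, singled out after its values were seen. Its 3 probe sets rose by 5.59 to 6.86 in IITR26 and 6.18 to 6.52 in WL711, all called by limma. TaAffx.46097.2.S1_at missed the bound at 28 DAA, where IITR26 was higher by 1.30, and Ta.2704.1.S1_at missed it at 14 DAA, where IITR26 was higher by 1.52. The LEA gene LOC543476 (Ta.23797.1.S1_x_at), with rises of 2.19 in IITR26 and 2.72 in WL711, missed it by less, at 1.18 at 14 DAA.

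In 15 of the 20 lists no probe set was called higher in both genotypes, and in 10 lists at least 1 was called lower in both. Among the 9 photosynthesis probe sets, which mark green pericarp, 5 were lower in IITR26 and 8 in WL711, 4 of them in both. Among the 24 of histones and DNA replication, 15 were lower in IITR26 and 2 in WL711, and these 2 were lower in both. Lower in both were also 4 of 23 lipid transfer proteins, 2 of 13 in the list of proteases and ubiquitin, both nepenthesin aspartic proteases, 4 of 21 defence proteins and 1 each of 6 for sugars, 3 aquaporins, 2 transfer cell proteins and 4 for abscisic acid. Of the 27 protease and amylase inhibitors 3 were lower in both, and these 3 are named for a family of protease inhibitors, seed storage and lipid transfer proteins and are among the 4 above. In all, 20 different listed probe sets were called lower in both, against 0.644% of all probe sets, an unlike background since many names rest on the putative functions. In IITR26, limma called 0 of 3 storage globulins and 0 of 7 gliadins and glutenins higher, with 3 and 1 at an unadjusted p under 0.05 in either direction and 0 and 0 called by the methods' t-test after adjustment. In WL711 it called 3 of 3 storage globulins and 4 of 7 gliadins and glutenins higher, and the difference between the genotypes was not tested. Among these 4, Ta.160.1.S1_x_at, Ta.160.2.S1_x_at and Ta.160.3.S1_x_at share a cluster. In them replicate 1 of WL711 at 28 DAA lay far above its replicates. It read 0.81 against -1.21 and -1.32 in the first and 0.63 against -2.41 and -2.86 in the last.

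The lists left were of no more than 14 probe sets each and had none called in the same direction in both genotypes. Transcription factors had 2 of 14 higher and 1 lower in IITR26, and 2 higher and 7 lower in WL711. Antioxidant enzymes had 3 of 11 higher in IITR26, and 2 higher and 3 lower in WL711. Starch synthesis had 3 of 3 lower in IITR26 and metal binding 1 of 2. In WL711 limma and the methods' t-test after adjustment each called 0 in these lists, with 2 and 1 at an unadjusted p under 0.05. Of the 6 ribosomal protein probe sets, both tests called 0 in either genotype, with 3 in IITR26 and 3 in WL711 at an unadjusted p under 0.05. Since names are tied to genotype differences, these counts describe the named probe sets and not the pathways.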

How the data were processed

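GeneSpring GX and RMA normalisation were used by the authors, and the deposited log2 values were found to be centred in addition, so that every probe set has a median of 0 over all 12 samples. The methods are silent on this centring. The number of arrays limits the precision. From these values 111 control probe sets were left out, and limma 3.58.1 in R 4.3.3 was fitted to the other 61179 with 1 mean per group and Benjamini-Hochberg adjustment. A call needed a log2 change of 2 or more and an adjusted p no higher than 0.01, the limits in the methods, whose t-test is an alternative. Each stage contrast was 28 DAA minus 14 DAA. The fit and the selection were tested on simulated data. The selection, its limits and the 20 key word lists were chosen with earlier results of these data known. Text names the selected probe sets with a gene, the strongest unnamed ones, those nearest each limit and up to 4 per list. Other selected probe sets, and further listed ones, were chosen for display after their values were seen. Platform annotation gave 1 gene to 1273 probe sets, of which 1272 were found in the gene table. No probe or transcript sequences were used, and no coordinates are given because the files name no genome build. Alternatives are listed in the closing section.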

Additional observations from a re-analysis of the deposited data

Results flagged for a closer look

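Some named probe sets outside the selection moved one way in IITR26 and the opposite way in WL711, with no overlap between the arrays of the stages in either, and the difference between the genotypes was not tested. Caleosin (Ta.14471.3.S1_a_at) changed by 3.43 in IITR26 and -1.81 in WL711. The abscisic acid related Ta.10310.3.S1_at changed by -2.93 in IITR26 and 1.94 in WL711. Isoamylase (Ta.2773.1.S1_at) changed by -2.69 in IITR26 and 0.34 in WL711, and metallothionein (Ta.28347.1.S1_s_at) by -0.40 in IITR26 and 0.77 in WL711. Ribosomal protein L9 (Ta.28317.3.S1_x_at) changed by 1.80 in IITR26 and -0.46 in WL711, and ribosomal protein L27 (TaAffx.42641.1.S1_at) by 0.33 in IITR26 and -1.09 in WL711.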

How the results depend on the processing

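The number of selected probe sets followed its limits closely. It was 120 with a rise of at least 1.5, 22 with 2.5, 9 with a genotype difference within 0.5 and 122 within 1.5. It was 207 after repeated quantile normalization, 38 of them shared with the 51. Leaving out 1 array gave 39 to 77. The median rise in IITR26 was 2.80 after quantile normalization and 2.47 to 2.68 without 1 array, and in WL711 it was 2.5 to 2.70 without 1 array. In left-out arrays, for the probe sets selected anew without them, the medians ranged from 2.38 to 2.92 in IITR26 and from 2.27 to 3.10 in WL711.

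For calls over all probe sets, the methods' t-test after adjustment gave 250 higher and 480 lower in IITR26 and 192 higher and 247 lower in WL711. Before adjustment, at their threshold, it gave 747 higher and 960 lower in IITR26 and 555 higher and 779 lower in WL711. A log2 limit of 1 gave 2531 higher and 3321 lower in IITR26 and 1663 higher and 2521 lower in WL711. Without probe sets of suffix x, s or a, fewer were tested, and 580 were lower in IITR26, 381 higher and 509 lower in WL711. Without 1 array the counts were 725 to 881 higher and 906 to 1032 lower in IITR26, and 569 to 621 higher and 742 to 895 lower in WL711.

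Replicate numbers were not used to pair the samples, and the labels do not say whether they do. Deviations of same-numbered arrays between stages correlated at 0.06 to 0.07 in IITR26 and 0.02 to 0.07 in WL711. Those between genotypes at one stage correlated at -0.04 to 0.19, the highest at 14 DAA. Such values cannot show that same-numbered samples were unrelated. With a replicate block, 807 were higher and 974 lower in IITR26 and 586 higher and 817 lower in WL711. For the selected probe sets named under the stated rule, 385 of 416 values kept their direction and call, 30 lost the call and 1 gained one. For single named probe sets outside the selection, 2383 of 2432 values kept their direction and call, 24 lost the call, 25 gained one and 0 turned direction. The genotype order under other scalings and without doubtful arrays was examined after the data had been seen.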
